A study of Canis lupus familiaris with 25 samples.

Results

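The S100 calcium-binding proteins described here are the products of 10 genes, S100A1, S100A2, S100A4, S100A8, S100A9, S100A10, S100A12, S100A14, S100A16 and S100P. They were taken by name from a count table of 24532 genes, and all 10 names were found. The counts came from QuantSeq 3′ libraries, which sequence 1 fragment near the 3′ end of each transcript, of 25 archival canine tumor samples kept as formalin-fixed, paraffin-embedded (FFPE) tissue. Of these, 10 were hepatoid gland adenomas (HGA), tumors of the sebaceous-like glands around the anus, from 6 intact and 4 neutered dogs aged 8 to 14 years. Another 11 were primary apocrine gland anal sac adenocarcinomas (AGASAC), malignant tumors of the glands in the wall of the anal sac, from 2 intact and 9 neutered dogs aged 8 to 12.5 years. The last 4 were sublumbar lymph node metastases of the dogs that gave AGASAC primary tumors 1 to 4, 1 intact and 3 neutered. The labels name no treatment, and whether the dogs had been treated before surgery is not given. Each sample was bulk tissue with whatever stroma, muscle or lymph node it held, and there was no normal gland to compare with.

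S100 proteins are small proteins that bind calcium through a pair of EF-hand motifs, mostly as dimers, and then attach to target proteins. Inside cells they act on the cytoskeleton, on annexins and on p53, and some are secreted and act on receptors such as AGER (RAGE) and TLR4. They are known from epithelia and from white blood cells: S100A2, S100A14 and S100A16 are epithelial, S100P is found in glandular epithelia and their carcinomas, and S100A8, S100A9 and S100A12 are the calgranulins of neutrophils and monocytes. Most of the genes lie in 1 cluster. By gene order in RefSeq (assembly UU_Cfam_GSD_1.0), where all 10 symbols were found, S100A14, S100A16 and S100A2 followed each other as neighbouring protein-coding genes, as did S100A8, S100A12 and S100A9, while S100P stood outside the cluster. There, S100A1 overlapped S100A13, S100A10 overlapped LOC111090730 and S100P overlapped LOC106558629. Whether reads were counted by strand is not given in the sources used here, so these genes may share reads with their partners.

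Total counts on genes ranged from 1562347 to 6389555 in HGA, from 2581453 to 4218340 in primary AGASAC and from 2857541 to 3289546 in the metastases. Levels are given as CPM, counts per 1000000 with library sizes scaled by TMM (trimmed mean of M-values) over all 25 samples, and as each transcript gives 1 fragment, CPM can be compared between genes without a correction for length. The level of 3 counts, the most that an observed 0 allows, was 0.543 to 1.84 CPM in HGA, for counting error only. The library of HGA 10 stood apart. Its median Spearman correlation across genes with the other HGA was 0.760, against 0.820 to 0.912 for the other 9, and the S100 genes took the smallest share of its counts (0.0242%, against up to 0.134%). Its summed markers of sebaceous and hepatoid gland, such as SCD and CIDEA, were at 3610 CPM. This lay within the primary AGASAC range of 1766 to 5169 CPM and below the other 9 HGA, at 42005 to 121277 CPM. In this sum, most of it SCD, the library labelled HGA 10 went against its group. CIDEA and KRT79 of the same list did not: their lowest HGA levels were 386 and 39.1 CPM. In primary AGASAC they reached at most 0.345 and 0 CPM. PLIN2, also in the list, had a lower median in HGA (206 CPM) than in primary AGASAC (390 CPM). The squamous markers of HGA 10 lay within the HGA range, and its luminal gland markers were the lowest of all HGA. It was the only sample of its RNA extraction batch, and results that rest on it are given with and without it. The read files had 2 forms of names, 1 shared by the other 9 HGA and 3 primary AGASAC and the other by HGA 10 and 7 primary AGASAC (1 is not given), and what the forms stand for is not known. Summed markers of squamous epithelium, such as KRT5 and KRT14, ran from 3325 to 12948 CPM in HGA and from 69.9 to 240 CPM in primary AGASAC. Markers of luminal gland epithelium, such as KRT7 and EPCAM, ran from 778 to 3143 CPM and from 5574 to 8653 CPM, respectively. Genes of this list differed unequally. CLDN4 and CDH1 had means of 894 and 809 CPM in HGA and 935 and 941 CPM in primary AGASAC. KRT8, KRT18 and KRT19 had means of 0.0452, 4.33 and 0.417 CPM in HGA and 465, 580 and 1429 CPM in primary AGASAC.

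The first question was how HGA and primary AGASAC differed in these genes. S100P was lower in HGA, and S100A2, which the filter on low counts removed from the main test, was higher in HGA in the fit without that filter. S100A14, S100A16, S100A8 and S100A1 had higher means in HGA but did not pass, and S100A4 and S100A10 had similar means in both. The main test was the quasi-likelihood test of edgeR, with p-values adjusted by Benjamini-Yekutieli over all genes tested, and calls needed both an adjusted p no higher than 0.05 and a log2 fold change (log2FC, HGA relative to AGASAC) of at least 1 in size. Of the 10 genes, 6 passed the filter and 1 of these was called, lower in HGA. Among all 12070 genes tested, 25.1% were called, 12.6% higher and 12.5% lower. For 0 of the 10 S100 genes were the levels of the groups free of overlap, against 9.13% of all genes tested, which leave out the S100 genes that failed the filter. The median log2FC was 0.49 over the 6 genes tested and −0.03 over all genes. In bulk tissue, fewer cells of a type and less RNA per cell cannot be told apart.

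**Figure D1:**
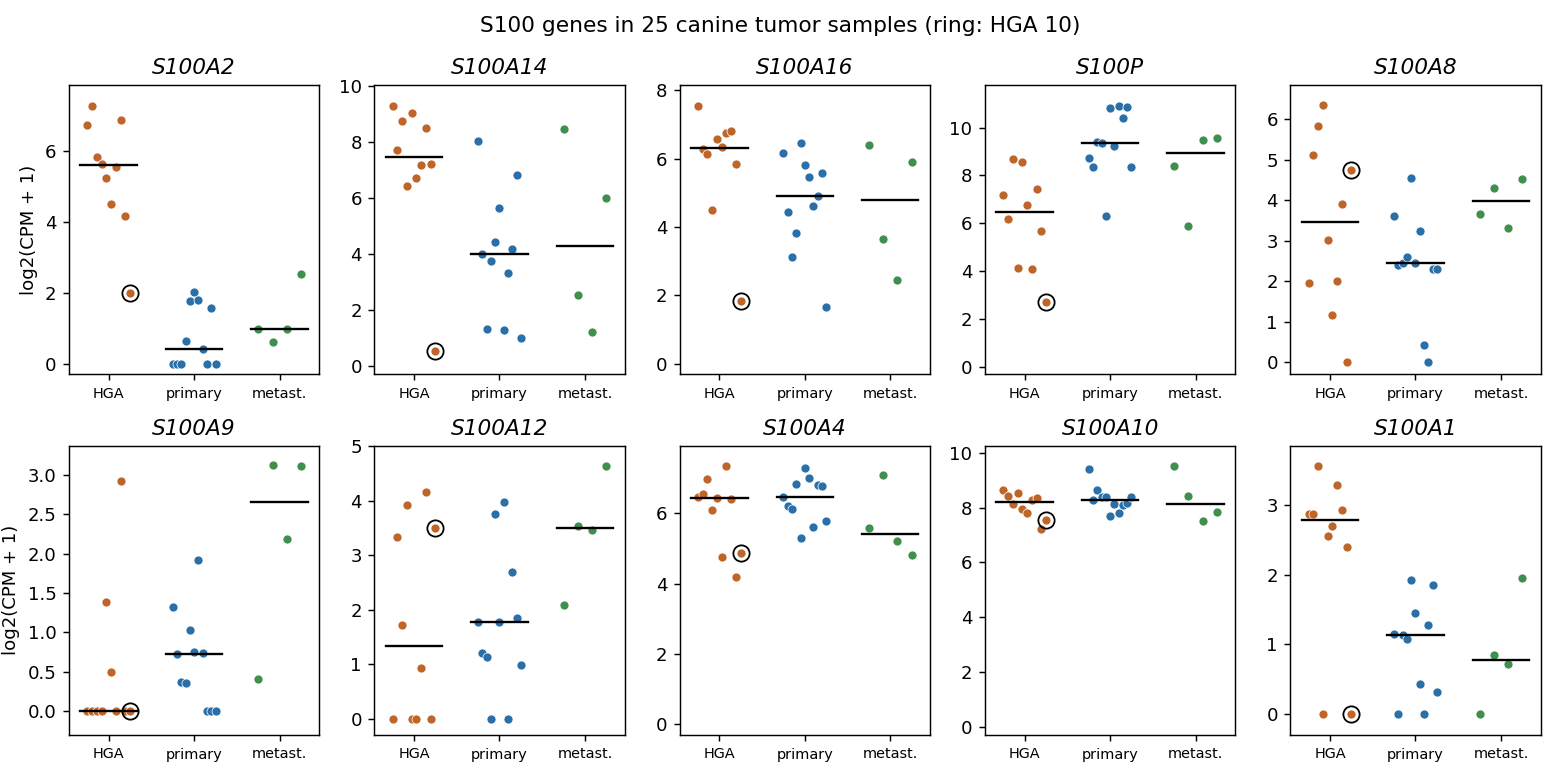
Levels of the 10 S100 genes as log2(CPM + 1) in each of 25 samples, by group (10 HGA, 11 AGASAC primary tumors, 4 AGASAC metastases), with a black line at the group median and a ring around HGA 10. For S100A2, 9 of 10 HGA lie above every AGASAC primary tumor, and for S100P, 8 of 11 AGASAC primary tumors lie above every HGA.

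S100A2 is a p53 target that is found in the nuclei of basal cells of squamous epithelia. Its level in HGA ran from 3.01 CPM through a median of 47.7 CPM to 156 CPM (61.1 ± 49.7, SD, n = 10). In primary AGASAC it ran from 0 through 0.335 to 3.101 CPM (0.984 ± 1.23, SD, n = 11), with 0 counts in 5 of 11 tumors. The groups overlapped only through HGA 10, whose 3.01 CPM (7 counts) lay within the AGASAC range, while the lowest of the other HGA was at 16.97 CPM. The filter asks for about 10 counts in as many samples as the smaller group holds, and HGA 10 missed it, so the gene was not tested in the main fit. Without a filter, the log2FC was 5.94 (SE 0.70, 95% interval 4.50 to 7.37, edgeR adjusted p = 2.48e-06), and DESeq2 gave 5.98 (SE 0.68, adjusted p = 3.12e-16). Without HGA 10 the gene passed the filter through its levels in the other HGA, with a log2FC of 6.15 (SE 0.64, edgeR adjusted p = 5.23e-07). Within the RNA extraction batches that held at least 2 tumors of each type, the log2FC was 6.27 in batch 5, 5.84 in batch 6 and 5.42 in batch 8, with edgeR adjusted p of 0.180, 0.0509 and 0.288. Every HGA of these 3 batches lay above every primary AGASAC of its batch, at 16.97 CPM or more against 3.101 CPM or less. The 3 primary AGASAC that share a form of file names with 9 of the HGA all had 0 counts.

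S100A14, which lies at the membrane of epithelial cells, is the next gene but 1 to S100A2. It spanned a wide range, from 0.430 through 177 to 623 CPM in HGA and from 0.972 through 15.0 to 262 CPM in primary AGASAC. HGA 10 had the lowest value of all 25 samples, a single count, while the other 9 HGA ranged from 83.6 CPM upwards. Only AGASAC primary tumors 1 and 10 reached this range, at 262 and 112 CPM. The means were 261 ± 209 CPM (SD, n = 10) and 45.5 ± 78.6 CPM (SD, n = 11). The log2FC of 2.56 (SE 0.84) did not pass the test (edgeR adjusted p = 0.150). With Benjamini-Hochberg adjustment the p was 0.0150, which would be a call, and without AGASAC primary 1 the log2FC was 3.48 and passed with Benjamini-Yekutieli adjustment as well (edgeR adjusted p = 0.0119). Without HGA 10 it was 2.71 (edgeR adjusted p = 0.0538). The log2FC was 4.86 in batch 5 and 3.92 in batch 6 but 0.35 in batch 8, which held AGASAC primary 1.

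S100A16, the neighbour between S100A14 and S100A2, is a broadly expressed epithelial member. It ran from 2.58 through 79.3 to 187 CPM in HGA (80.9 ± 51.1, SD, n = 10) and from 2.19 through 29.2 to 87.5 CPM in primary AGASAC (36.5 ± 27.1, SD, n = 11). HGA 10 again had the lowest HGA value, and 4 of 10 HGA lay above every primary AGASAC. The log2FC was 1.17 (SE 0.51, edgeR adjusted p = 0.639), and 1.32 without HGA 10 (edgeR adjusted p = 0.177), so no call was made in either case.

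S100A14 and S100A16 varied together across tumors. In HGA, Pearson's r of log2(CPM + 1) was 0.93 (permutation p = 0.00154, Benjamini-Hochberg adjusted over the 24 relations of this kind p = 0.0185) and Spearman's rho was 0.67 (permutation p = 0.0390, adjusted p = 0.156). This r rested on HGA 10: without it, and within the form of read file names that the other 9 HGA share, r was 0.68 (adjusted p = 0.110), and without the 2 tumors farthest from the median of S100A14 it was 0.56. In primary AGASAC, r was 0.70 (permutation p = 0.0166, adjusted p = 0.0797), rho was 0.77 (permutation p = 0.00778, adjusted p = 0.0622), r within the 7 tumors that share the other form of file names was 0.62, and r without the 2 farthest tumors was 0.52. After the mean of each tumor type was subtracted, the gene most like S100A14 among 12069 over the 21 primary tumors was S100A13, which lies beside it in the cluster (r = 0.85), followed by S100A16 (r = 0.82) and MGAT4B (r = 0.79). S100A16 was most like AQP1 (r = 0.86), FBXO27 (r = 0.84) and S100A13 (r = 0.84). These are descriptions, and HGA 10 is among the tumors. Across HGA, S100A2 had no such relation to the summed squamous markers (r = −0.05, permutation p = 0.896, adjusted p = 0.935, rho = 0.12, permutation p = 0.759, adjusted p = 0.943).

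S100P, which binds ezrin and is secreted by gland cells and carcinomas, went the other way. Its level ran from 5.59 through 90.2 to 408 CPM in HGA (137 ± 145, SD, n = 10) and from 78.4 through 662 to 1918 CPM in primary AGASAC (912 ± 689, SD, n = 11). Of the AGASAC, 8 of 11 lay above every HGA, and AGASAC primary 5, at 78.4 CPM, was the lowest. In the other direction, 5 of 10 HGA lay below every AGASAC. The log2FC was −2.72 (SE 0.65, 95% interval −4.06 to −1.37, edgeR adjusted p = 0.0140). DESeq2 called it as well, at −2.75 (SE 0.57, adjusted p = 8.04e-05). It stayed called when each of the 21 tumors was left out in turn, with a log2FC between −3.07 and −2.56, and it was −2.57 without HGA 10. The log2FC was −3.46 in batch 5, −2.60 in batch 6 and −2.11 in batch 8 (edgeR adjusted p of 0.313, 0.347 and 1). Among the 9 HGA and 3 primary AGASAC that share 1 form of file names it was −1.64 (edgeR adjusted p = 0.998). The genes whose pattern was most like S100P within the tumor types were KIAA0513 (r = 0.82), ALKBH4 (r = 0.79) and CDH7 (r = 0.77).

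S100P also took much of what the 10 genes gave in AGASAC. Its share of their summed counts had a median of 58.1% in primary AGASAC (13.2% to 86.4%), 42.2% in the metastases (9.86% to 74.5%) and 10.3% in HGA (2.01% to 28.4%). In HGA the largest median shares were those of S100A10 (34.0%) and S100A14 (25.2%). In primary AGASAC S100A14 had a median share of 1.099%.

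**Figure D2:**
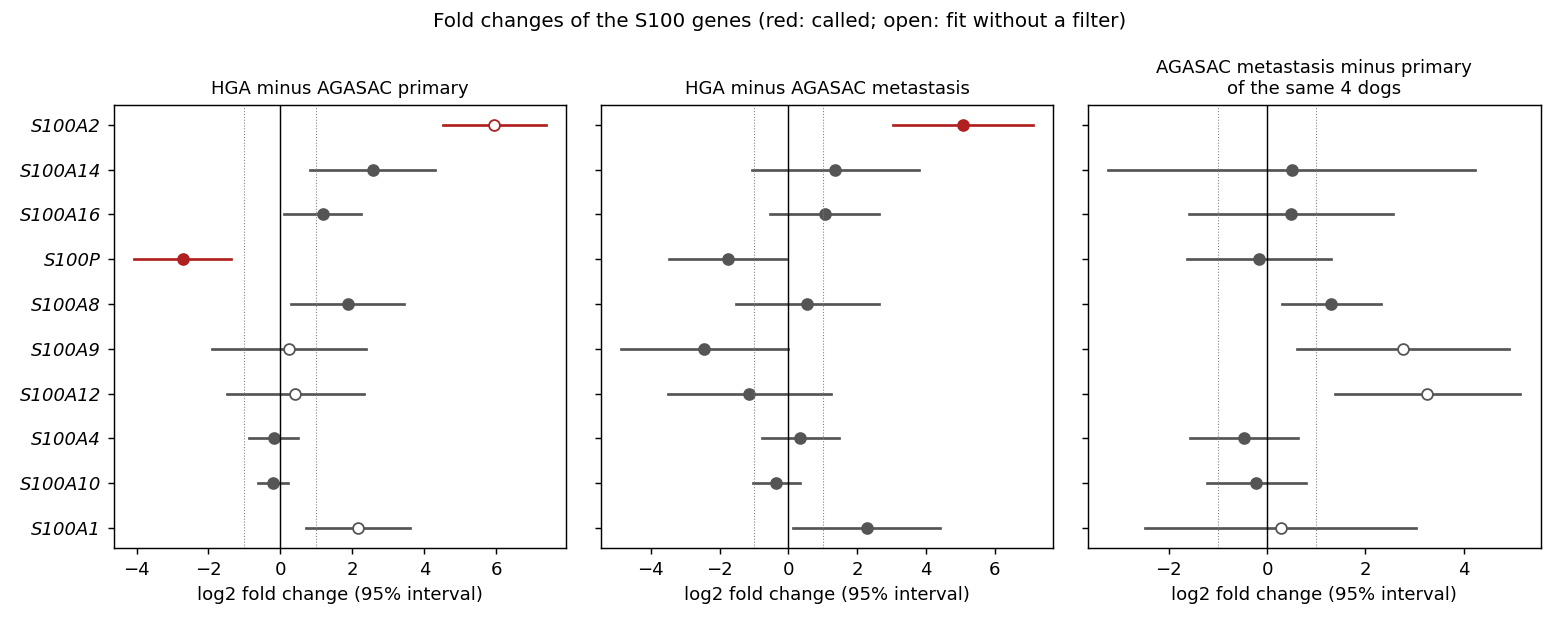
Log2 fold changes with 95% intervals (edgeR) of the S100 genes in 3 comparisons; red marks called genes, open circles come from the fit without a filter, dotted lines mark a log2FC of 1 in either direction, and S100A2 is left out of the right panel because its 4 primary tumors had at most 2 counts. S100A2 is at 5.94 and 5.08 against AGASAC primary tumors and metastases, S100P is at −2.72 against primary tumors, and no gene is called between metastases and primary tumors. The fit of metastases and primary tumors has no block for the dog.

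**Figure D3:**
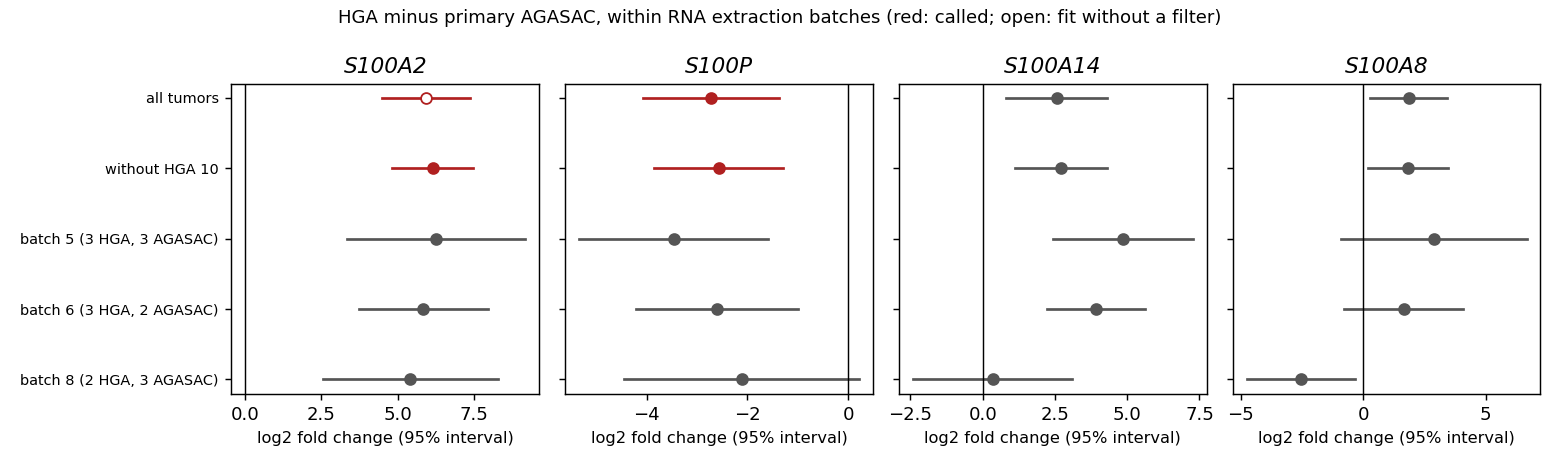
Log2 fold changes with 95% intervals of HGA relative to primary AGASAC for S100A2, S100P, S100A14 and S100A8, for all tumors, without HGA 10 and within 3 RNA extraction batches. S100A2 stays between 5.42 and 6.27 and S100P between −3.46 and −2.11, while S100A8 changes sign in batch 8.

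The calgranulins are alarmins of myeloid cells. S100A8 and S100A9 form the heterodimer calprotectin, which squamous cells also make under stress, and S100A12 is a ligand of RAGE. S100A8 ran from 0 through 10.5 to 79.9 CPM in HGA (22.4 ± 27.1, SD, n = 10) and from 0 through 4.45 to 22.6 CPM in primary AGASAC (6.22 ± 6.26, SD, n = 11). HGA 2, 3, 4 and 10 lay above every primary AGASAC, at 25.8 to 79.9 CPM, and the other 6 lay within their range. The log2FC was 1.87 (SE 0.76), which did not pass (edgeR adjusted p = 0.460) but would with Benjamini-Hochberg adjustment (p = 0.0461). It was −2.55 within batch 8, where 2 HGA had 1.22 and 3.04 CPM and 3 primary AGASAC had 4.25 to 22.6 CPM, and 0.70 with the age of the dog as a term. The most similar genes were SWSAP1 (r = 0.83), TXNDC5 (r = 0.82) and DNAJC8 (r = 0.75).

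S100A9 was near the detection limit. It had 0 counts in 7 of 10 HGA, and only HGA 8, with 16 counts (6.57 CPM), had more than 3. In primary AGASAC it ran from 0 through 0.654 to 2.80 CPM, with more than 3 counts in 2 of 11 tumors. It was not tested in the main fit, and without a filter the log2FC was 0.24 (95% interval −1.89 to 2.38, edgeR adjusted p = 1), so a difference was not detectable at this depth. S100A12 ran from 0 through 1.596 to 16.8 CPM in HGA and from 0 through 2.41 to 14.7 CPM in primary AGASAC, with a log2FC of 0.41 without a filter (95% interval −1.50 to 2.31, edgeR adjusted p = 1). Since the 3 genes are related and multi-mapped reads were split evenly over their locations, low counts may hold reads of a relative.

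Relations between the calgranulins were read with S100A9 near its detection limit. Across HGA, r was −0.01 for S100A8 with S100A9 (permutation p = 0.973, adjusted p = 0.973, rho = −0.20, permutation p = 0.589, adjusted p = 0.883) and 0.78 for S100A8 with S100A12 (permutation p = 0.0121, adjusted p = 0.0726, rho = 0.76, permutation p = 0.0142, adjusted p = 0.0683, r without the 2 farthest tumors 0.70, r without HGA 10 0.77). Across primary AGASAC, r was 0.53 (permutation p = 0.0896, adjusted p = 0.249, rho = 0.73, permutation p = 0.0138, adjusted p = 0.0683) for S100A8 with S100A9 and 0.42 (permutation p = 0.196, adjusted p = 0.361, rho = 0.33, permutation p = 0.324, adjusted p = 0.648) for S100A8 with S100A12. None of these 4 relations passed after adjustment. Without LTF, which gland epithelium also makes and which held a median of 92.7% of the list's level in primary AGASAC and 8.98% in HGA, the neutrophil markers (10 genes, such as CXCR2 and MMP9) summed to 2.58 to 30.1 CPM in HGA and 2.37 to 35.0 CPM in primary AGASAC, a difference of −0.42 on the log2 scale (permutation p = 0.340). With LTF the difference was −3.25 (permutation p = 0.00038, adjusted over 11 marker lists p = 6.97e-04). The median was 0 CPM for CSF3R, CXCR1, MMP8, CAMP, MPO, ELANE and OLFM4 in both tumor types. Macrophage markers summed to 107 to 349 CPM in HGA and 208 to 607 CPM in primary AGASAC, lower in HGA by 0.71 on the log2 scale (permutation p = 0.00288, adjusted p = 0.00453). Across HGA, r with the neutrophil sum without LTF was 0.46 for S100A8 (permutation p = 0.194, rho = 0.35, permutation p = 0.333), 0.34 for S100A9 (permutation p = 0.303, rho = 0.04, permutation p = 0.932) and 0.58 for S100A12 (permutation p = 0.0782, rho = 0.38, permutation p = 0.276). Without HGA 10 these r were 0.59, 0.30 and 0.81. Across primary AGASAC r was 0.08 for S100A8 (permutation p = 0.819, rho = 0.06, permutation p = 0.860), −0.16 for S100A9 (permutation p = 0.646, rho = −0.06, permutation p = 0.881) and −0.24 for S100A12 (permutation p = 0.486, rho = −0.21, permutation p = 0.524). These p-values are without adjustment.

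S100A4, found in fibroblasts, macrophages and lymphocytes and named for its tie to metastasis, and S100A10, which joins annexin A2 in a complex at the membrane, were the steadiest. S100A4 ran from 17.4 through 84.8 to 161 CPM in HGA (77.6 ± 45.3, SD, n = 10) and from 38.2 through 86.8 to 156 CPM in primary AGASAC (89.5 ± 36.8, SD, n = 11). The log2FC was −0.19 (95% interval −0.86 to 0.49, edgeR adjusted p = 1). S100A10 ran from 148 through 297 to 395 CPM in HGA (283 ± 80.6, SD, n = 10) and from 205 through 312 to 671 CPM in primary AGASAC (331 ± 125, SD, n = 11), with a log2FC of −0.20 (95% interval −0.61 to 0.22, edgeR adjusted p = 1). For both genes the interval leaves out differences of 1 on the log2 scale in either direction, and the groups overlapped over most of their range.

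ANXA2, the gene of the S100A10 partner annexin A2, was called higher in HGA, from 267 ± 123 CPM (SD, n = 11) in primary AGASAC to 1004 ± 367 CPM (SD, n = 10), with a log2FC of 1.95 (SE 0.26, edgeR adjusted p = 1.94e-05). Across tumors of one type, S100A10 had no relation to ANXA2 that passed (r = −0.06 in HGA, permutation p = 0.88, adjusted p = 0.935, rho = −0.15, permutation p = 0.683, adjusted p = 0.911, and r = 0.36 in primary AGASAC, permutation p = 0.28, adjusted p = 0.456, rho = 0.29, permutation p = 0.387, adjusted p = 0.663). Among the genes most like S100A10 were RNF152 (r = 0.80) and MIER1 (r = 0.80).

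S100A4 was set beside 2 marker lists, and the list whose relation passed was not the same in the 2 tumor types. Across HGA it rose with the summed fibroblast markers (COL1A1, DCN and others), with r = 0.87 (permutation p = 0.00091, adjusted p = 0.0185), rho = 0.89 (permutation p = 0.00105, adjusted p = 0.0215), r = 0.87 without HGA 10 and r = 0.74 without the 2 farthest tumors. Across primary AGASAC r with the fibroblast markers was −0.14 (permutation p = 0.68, adjusted p = 0.859, rho = −0.05, permutation p = 0.904, adjusted p = 0.943). There it rose with the summed T cell markers (CD3D, CD2 and others), with r = 0.81 (permutation p = 0.00265, adjusted p = 0.0212), rho = 0.85 (permutation p = 0.00179, adjusted p = 0.0215), r = 0.83 within the 7 tumors of 1 form of file names and r = 0.87 without the 2 farthest tumors. In HGA r with the T cell markers was 0.62 (permutation p = 0.0656, adjusted p = 0.249, rho = 0.65, permutation p = 0.0488, adjusted p = 0.167). The T cell sum was low in HGA, at 1.84 to 49.7 CPM, with a median of 0 CPM for CD8A and TRAT1. Whether the relations differ between the tumor types was not tested. Over the 21 tumors, the genes most like S100A4 were ADA (r = 0.83), NOL4L (r = 0.81) and GPR34 (r = 0.78).

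**Figure D4:**
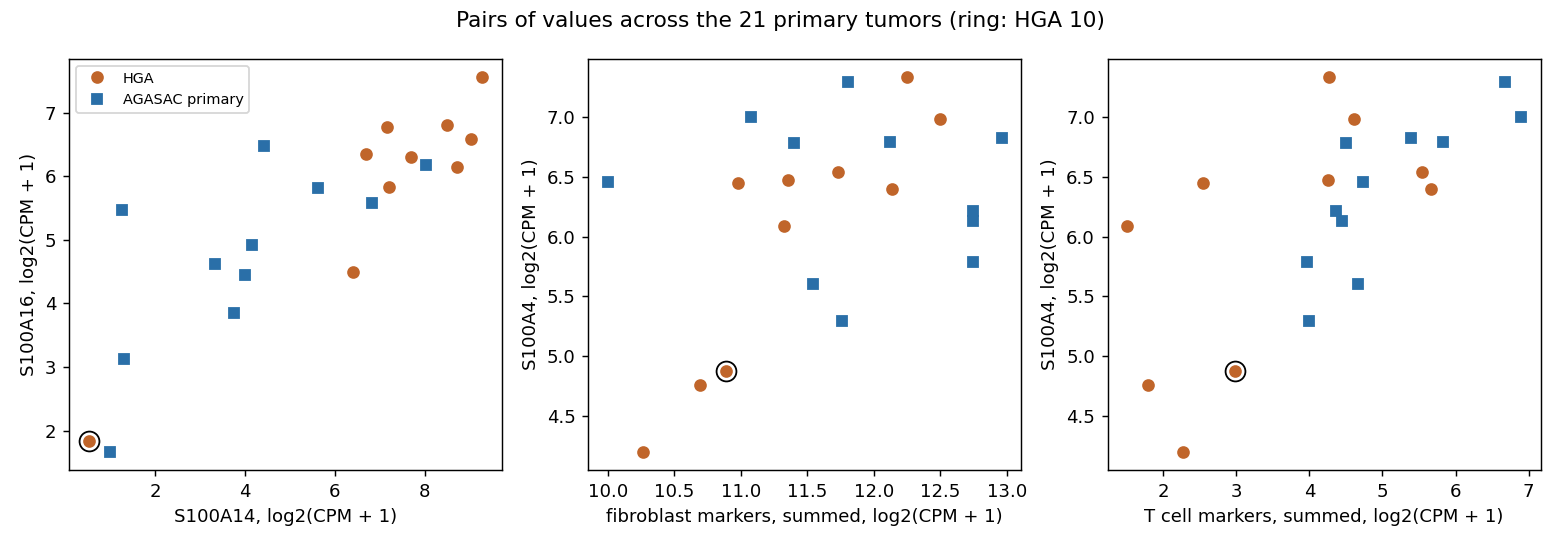
Values as log2(CPM + 1) in the 10 HGA (circles) and 11 primary AGASAC (squares): S100A16 against S100A14, and S100A4 against summed fibroblast and summed T cell markers, with a ring around HGA 10. Within HGA, S100A4 follows the fibroblast markers (r = 0.87), within primary AGASAC it follows the T cell markers (r = 0.81), and HGA 10 lies at the low end of S100A14 and S100A16. Within HGA, r of S100A4 with the T cell markers is 0.62, and a difference between the tumor types was not tested.

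S100A1, best known from heart and skeletal muscle, where it acts on calcium release, was low in all groups. It ran from 0 through 5.92 to 10.8 CPM in HGA (5.35 ± 3.40, SD, n = 10) and from 0 through 1.19 to 2.78 CPM in primary AGASAC (1.15 ± 0.965, SD, n = 11). Of the HGA, 8 of 10 lay above every primary AGASAC, and HGA 4 and 10 had 0 counts. It failed the filter. Without a filter, the log2FC was 2.16 (SE 0.70, edgeR adjusted p = 0.205), and DESeq2 called it at 2.22 (SE 0.63, adjusted p = 0.0156), so the call depends on the tool. S100A13, which overlaps S100A1 in RefSeq, had means of 61.2 ± 34.6 CPM (SD, n = 10) in HGA and 25.6 ± 18.1 CPM (SD, n = 11) in primary AGASAC. Whether shared reads enter the S100A1 values was not tested. Skeletal muscle markers (ACTA1, CKM and others) summed to 0.430 to 17.3 CPM in HGA and to 11.2 to 1089 CPM in primary AGASAC, the opposite order. Across the tumors of each type, r of S100A1 with these markers did not pass (0.57 in HGA, permutation p = 0.0869, adjusted p = 0.249, rho = 0.50, permutation p = 0.147, adjusted p = 0.442, and 0.35 in primary AGASAC, permutation p = 0.285, adjusted p = 0.456, rho = 0.35, permutation p = 0.295, adjusted p = 0.647).

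Other genes of the S100 system were read from lists of families and partners, against the 25.1% of all genes that were called (12.6% higher and 12.5% lower). Of 9 further S100 genes, 7 were in the table and 3 were tested between HGA and primary AGASAC. S100A6, which binds the calcyclin-binding protein, was called lower in HGA, with a log2FC of −1.85 (SE 0.42, edgeR adjusted p = 0.00853) and means of 311 ± 175 CPM (SD, n = 10) in HGA and 1137 ± 855 CPM (SD, n = 11) in primary AGASAC. S100A11, an annexin A1 partner and the neighbour of S100A10, was also called lower, at −1.20 (SE 0.19, edgeR adjusted p = 1.94e-04). S100A13 was not called (1.28, edgeR adjusted p = 0.227). Among those not tested, S100A5 had at most 1 count in each HGA. In primary AGASAC it ran from 0 through 2.71 to 123 CPM, with 0 counts in 4 of 11 tumors. S100A3, S100B and S100Z, also not tested, had means of at most 0.335 CPM in either tumor type. Of 7 fused-type S100 genes, which build the cornified layer of skin, 1 was tested, TCHH, and it was not called (−1.43, edgeR adjusted p = 0.871). RPTN and FLG failed the filter. RPTN had 0 counts in 10 of 10 HGA and ran from 0 through 7.23 to 210 CPM in primary AGASAC. FLG went the other way, with means of 8.09 CPM in HGA and 0.154 CPM in primary AGASAC, and 0 counts in 5 of 10 HGA.

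Among the annexins, membrane-binding partners of S100 dimers, 9 were tested, and besides ANXA2 4 were called lower in HGA. These were ANXA9 (−4.86, edgeR adjusted p = 1.77e-06), ANXA1 (−2.68, edgeR adjusted p = 0.00985), ANXA3 (−2.63, edgeR adjusted p = 6.46e-05) and ANXA11 (−1.25, edgeR adjusted p = 3.90e-04). Of 7 receptors tested, MCAM, a receptor of S100A8 and S100A9 that endothelium also makes, was higher in HGA (1.34, edgeR adjusted p = 0.0248), and ALCAM was lower (−2.42, edgeR adjusted p = 1.45e-05). The 6 endothelial markers, none with a median of 0 CPM, summed to 196 to 571 CPM in HGA and 52.9 to 227 CPM in primary AGASAC, higher in HGA by 1.04 on the log2 scale (permutation p = 8e-05, adjusted p = 1.76e-04), and their part in the MCAM value was not tested. Of 7 partners inside the cell, 1 was called, EZR, the gene of ezrin, which S100P binds. It was lower in HGA, as S100P was (−1.30, SE 0.18, edgeR adjusted p = 2.74e-05). Of 8 other EF-hand genes tested, CAPN1, a calpain, was called higher (1.68, edgeR adjusted p = 1.15e-04). CALML5 and PVALB of this list failed the filter and were not tested. CALML5 had a mean of 552 ± 403 CPM (SD, n = 10) in HGA, with 4 counts in the lowest tumor. In primary AGASAC it had 0 counts in 11 of 11 tumors. PVALB had a mean of at most 0.182 CPM in either tumor type.

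HGA were also compared with the 4 metastases. This comparison shares its HGA with the one above, so its values are set beside those and do not test them again. All 10 genes passed the filter here, and 1 was called, higher in HGA, among 16.1% of all 13195 genes tested (8.4% higher and 7.69% lower). The smaller group here is the 4 metastases, so the filter asks for fewer samples than above, and a gene can pass through HGA alone. S100A2 had 0.973, 0.531, 0.965 and 4.79 CPM in metastases 1 to 4, all below the HGA other than HGA 10 and with 1 of them, metastasis 4, above HGA 10. These were 3, 2, 3 and 15 counts. S100A2 thus passed the filter through HGA, where it is high, and its call is given as a description. Its log2FC was 5.08 (SE 0.96, 95% interval 3.04 to 7.11, edgeR adjusted p = 0.00744), and it stayed called when each of the 14 samples was left out in turn (4.75 to 6.19).

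S100P had 332, 58.6, 722 and 751 CPM in the metastases and a log2FC of −1.77 (SE 0.81, edgeR adjusted p = 1). S100A14 had 347, 4.78, 1.29 and 62.9 CPM (log2FC 1.37, SE 1.15, edgeR adjusted p = 1), and S100A1 at most 2.88 CPM (log2FC 2.28, SE 1.02, edgeR adjusted p = 1). S100A9 was the member with the most negative value, −2.44 (SE 1.14, edgeR adjusted p = 1). None of these was a call. For 0 of the 10 genes did the 2 groups not overlap at all, against 16.1% of all genes tested.

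The metastases were then set against the primary tumors that the same 4 dogs had given. In the main fit the dog was not a block, so the samples of a dog counted as independent. The log2FC and p-values of single members in this comparison come from fits without that block, unless it is named. Among the S100 genes, 0 of the 6 tested were called by edgeR, and 0 of all 12629 genes tested (0%). At an unadjusted p under 0.05, S100A8 was the 1 member of 6 and there were 145 genes in all, while DESeq2 called 5 genes, with 0 of the 10 S100 genes among them. With the dog as a replicate block in edgeR, 0 members and 1 gene in all were called, and 1 member and 491 genes in all had an unadjusted p under 0.05.

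The calgranulins had higher means in the metastases, and the single dogs show how far that reached. S100A12 had 8, 4, 4 and 0 counts in primary tumors 1 to 4 and 10, 40, 31 and 75 counts in their metastases (2.41, 1.31, 1.19 and 0 CPM against 3.24, 10.6, 9.97 and 23.96 CPM). All 4 metastases lay above all 4 primary tumors, and the gap for dog 1 was 2 counts. Such a separation, in either direction, was seen in 1.14% of the genes that passed the filter. S100A12 failed the filter, so it is not among those genes and the share of low-count genes was not computed. With no filter and no block for the dog, the log2FC of S100A12 was 3.26 (SE 0.86, edgeR adjusted p = 1, unadjusted p = 0.00287).

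S100A8 had 11.2, 4.25, 4.45 and 5.00 CPM in the primary tumors and 11.7, 18.6, 9.01 and 22.0 CPM in the metastases. It was higher in the metastasis of each dog, by little in dog 1. In the fit without the dog as a block, the log2FC was 1.31 (SE 0.44, edgeR adjusted p = 1, unadjusted p = 0.0160). S100A9 had 5, 2, 1 and 1 counts in the primary tumors and 1, 29, 11 and 24 counts in the metastases, higher in 3 of 4 dogs and lower in dog 1. Its log2FC without a filter was 2.77 (SE 0.98, edgeR adjusted p = 1).

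Beside these values, the neutrophil markers without LTF summed to 8.76 to 51.1 CPM in the metastases and were higher than in the primary tumor in 4 of 4 dogs, by 1.24 on the log2 scale on average. With LTF they were higher in 3 of 4 dogs, by 0.39. The T cell and B cell sums were higher in 4 of 4 dogs, by 0.96 and 0.53 on the log2 scale, and the skeletal muscle sum was higher in 0 of 4, with a mean difference of −3.99. In an exact sign-flip test, two-sided, the 4 pairs cannot give a p under 0.13, which these 4-of-4 differences had. The metastases were taken from lymph nodes, and the part of white blood cells in the calgranulin counts was not tested.

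**Figure D5:**
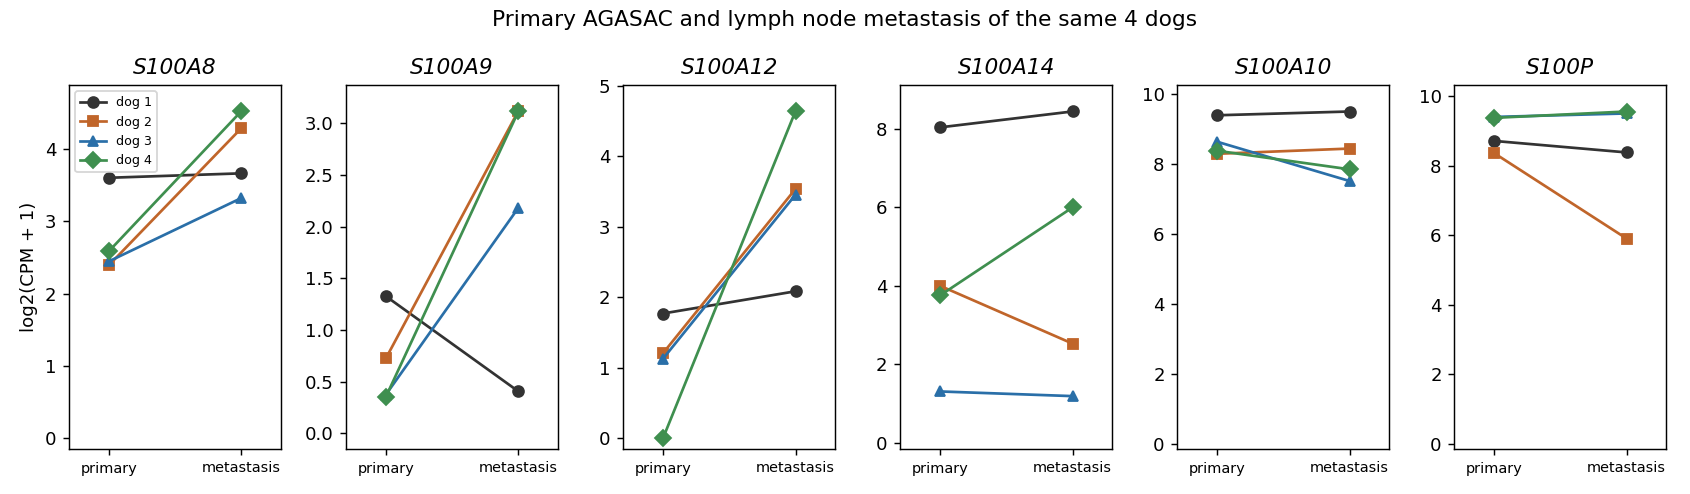
Levels of 6 S100 genes as log2(CPM + 1) in the primary AGASAC and the lymph node metastasis of the same 4 dogs, with 1 line per dog. S100A12 is higher in the metastasis in 4 of 4 dogs and S100A9 in 3 of 4, while S100A14 and S100A10 of dog 1 are the highest in both tissues.

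The epithelial pair S100A14 and S100A16 kept the order of the dogs at both ends. S100A14 had 262, 15.0, 1.48 and 12.5 CPM in primary tumors 1 to 4 and 347, 4.78, 1.29 and 62.9 CPM in the metastases. Dog 1 was highest and dog 3 lowest in both. S100A16 had 71.4, 20.9, 7.71 and 13.3 CPM in the primary tumors and 83.4, 11.7, 4.50 and 59.4 CPM in the metastases, with the same dogs at the ends. The log2FC of 0.50 for S100A14 had a 95% interval of −3.23 to 4.24, and with the dog as a block it was 0.43 with an interval of −0.93 to 1.79.

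S100P had 417, 327, 674 and 662 CPM in the primary tumors and 332, 58.6, 722 and 751 CPM in the metastases, so that the 1 large gap was in dog 2. S100A10 had 671, 312, 397 and 332 CPM in the primary tumors and 723, 346, 181 and 229 CPM in the metastases, higher in the metastasis in dogs 1 and 2 and lower in dogs 3 and 4. S100A4 had 86.8, 73.2, 69.1 and 113 CPM in the primary tumors and 47.0, 135, 36.3 and 27.2 CPM in the metastases, lower in 3 of 4 dogs. The summed fibroblast markers were 1025, 6882, 6879 and 7966 CPM in these primary tumors and 744, 12992, 1327 and 3030 CPM in the metastases. They and S100A4 were both higher in the metastasis of dog 2 and lower in those of dogs 1, 3 and 4. Across primary AGASAC, r of S100A4 was −0.14 with the fibroblast markers and 0.81 with the T cell markers. The summed T cell markers were higher in the metastasis in 4 of 4 dogs. The part of either list in the S100A4 levels was not tested. S100A2 and S100A1 had at most 4 counts in each of these primary tumors, and only metastasis 4 had more than 3 counts of either, 15 of S100A2 and 9 of S100A1.

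Neuter status and the presence of a sampled metastasis were the last 2 comparisons. Between HGA of 6 intact and 4 neutered dogs, edgeR called 0 of the 9 S100 genes tested and 0 of all 11906 genes (0%), of which 1167 had an unadjusted p under 0.05, 0 of them S100 genes, and DESeq2 called 23 genes in all and 0 S100 genes. S100A2 ran from 16.97 to 56.5 CPM in intact dogs, and in neutered dogs it was at 107, 156, 118 and, in HGA 10, 3.01 CPM. With HGA 10, which lay below all intact dogs, the ranges of the 2 groups overlapped. The other neutered dogs lay above all intact dogs, and how many of all genes do so was not counted. The log2FC of intact relative to neutered was −1.35 (SE 0.65, edgeR adjusted p = 1), and without HGA 10 it was −1.75 (SE 0.36, edgeR adjusted p = 1, unadjusted p = 3.25e-04). In the edgeR fit without HGA 10, 1358 of all 12297 genes tested had an unadjusted p under 0.05. None of the S100 genes was called in either case.

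Between primary AGASAC with and without a sampled metastasis (4 against 7), edgeR called 0 of the 6 S100 genes tested and 1 of all 13242 genes (0.00755%), and 1 member had an unadjusted p under 0.05. DESeq2 called 22 genes and 0 S100 genes. The member was S100A10, with 312 to 671 CPM in the 4 tumors and 205 to 331 CPM in the 7 others, and a log2FC of 0.63 (SE 0.24, edgeR adjusted p = 1, unadjusted p = 0.0210). Without AGASAC primary 1, at 671 CPM, the log2FC was 0.34 (SE 0.21, edgeR adjusted p = 1, unadjusted p = 0.137), and 0 members had an unadjusted p under 0.05. S100P had 327 to 674 CPM against 78.4 to 1918 CPM, with a log2FC of −1.13 (SE 0.68, edgeR adjusted p = 1).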

How the data were processed

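Data were QuantSeq 3′ libraries from 25 FFPE tumor samples of dogs. The authors trimmed reads with Cutadapt, aligned them with STAR to CanFam3.1 and counted them with featureCounts, on an annotation extended by 2 kb at the 3′ end for reads left unassigned, splitting multi-mapped reads evenly over their locations (versions not given in the sources used here). They deposited whole counts per gene and sample, which were used, and, as a signal, counts divided by a size factor with their mean over samples, which were not used. The columns of the authors' own comparison (a log2 fold change with its error, p-value and adjusted p-value, in the deposited table) were not used either. 0 columns of per-sample values were unassigned.

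Counts were tested in R 4.3.3 with edgeR 4.0.16 (filterByExpr with a minimum count of 10 and a minimum total of 15, TMM, quasi-likelihood, no covariate), over all genes, with DESeq2 1.42.0 as an alternative. P-values measure the spread between dogs. Where a metastasis and a primary tumor of the same dog enter a fit without the dog as a block, they count as independent samples. Groups came from the labels, RNA extraction batches and the 2 forms of read file names from the study's sample lists. The genes and gene lists were chosen with earlier results of these data known. Text names every S100 gene of the set, up to 3 called genes per direction of each list by smallest p, with ANXA1 added after its value was seen, and the 3 genes most alike, of which 1 is not reported here. Relations and marker sums used log2(CPM + 1) and two-sided permutation tests with 100000 resamples (Python 3.11.15, scipy 1.17.1). Scripts were tested on simulated data. No 2 samples of a group agreed within sampling noise (chi-square per degree of freedom of at least 13.5). Metastases and primary tumors of the same number came from the same dog by the labels, and their deviations from the group means correlated within 4 of 4 dogs (r of 0.424 to 0.710 across genes). The gene annotation used for gene order is of another assembly than the counts, so no coordinates are given. Alternatives were other normalizations, filters and adjustments, DESeq2, left-out samples, blocks, batches, DV200 (the share of RNA fragments over a set length), age and neuter status, and, chosen after seeing the data, relations without HGA 10 and neutrophil markers without LTF.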

Additional observations from a re-analysis of the deposited data

Results flagged for a closer look

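In 2 cases a single sample lay farther from the others than Dixon's test at the 95% level allows. They were among 20 combinations of a gene with the 10 HGA or the 4 metastases. Primary AGASAC was not tested in this way. The test assumes a normal spread, so for low counts with many 0 the share that chance flags is not known. S100A9 in HGA 8 was at 6.57 CPM, while the other 9 HGA had 0 to 1.62 CPM. S100A2 in AGASAC metastasis 4 was at 4.79 CPM, while the other 3 metastases had 0.531 to 0.973 CPM. No explanation was tested for either value.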

How the results depend on the processing

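In HGA against primary AGASAC, 1 S100 gene was called, and 3 with DESeq2 (S100P, S100A2, S100A1), 2 without a filter (S100P, S100A2), 3 with Benjamini-Hochberg (S100P, S100A14, S100A8), 2 with all 15 AGASAC samples, 0 with a replicate block (the groups share only numbers, with correlations of −0.046 to 0.045), 0 within extraction batches 5, 6 and 8, and 1 to 2 when single samples were left out. With library size alone, 1053 genes were higher and 2156 lower, against 1523 and 1509, and the median log2FC of all genes was −0.33; S100P stayed called. The count of all genes, 3032, was 1452 with at least 10 counts in every sample and 262, 637 and 338 within the 3 batches, and 2828 to 3373 with samples left out. Against metastases, 0 S100 genes were called with at least 10 counts in every sample, which removes S100A2, and all genes called, 2124, were 3211 with DESeq2, 1153 with that filter, 3536 with Benjamini-Hochberg, 662 with a replicate block and 1543 to 2588 with samples left out. Elsewhere, counts of all genes moved from 0 to 5 with DESeq2 and 1 with the replicate block (metastasis against primary), from 0 to 23 with DESeq2, 1 without a filter, 1 with Benjamini-Hochberg and 0 to 1 with samples left out (intact against neutered), and from 1 to 22 with DESeq2 and 0 with the stricter filter (with against without a metastasis). The cause was not tested, except that fewer genes or samples entered the filtered and within-batch fits.

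Signs turned only in values that had not passed. In HGA against primary AGASAC these were S100A4 (0.54 in batch 8, 0.14 within 1 form of file names), S100A8 (−2.55 in batch 8), S100A10 (0.32 in batch 6) and S100A12 (−0.16 with all 15 AGASAC). Against metastases, S100A10 was 0.15 with the replicate block and ran from −0.58 to 0.17 with samples left out. In metastasis against primary, S100A10 was 0.15 against all 11 primary tumors, and with samples left out S100A10 ran from −0.75 to 0.082, S100A14 from −1.65 to 3.39, S100A16 from −0.16 to 1.49 and S100P from −0.51 to 0.20. In intact against neutered, with samples left out, S100A1 ran from −0.16 to 0.49, S100A4 from −0.19 to 0.35, S100A8 from −0.58 to 0.76, S100A14 from −0.72 to 0.29 and S100A16 from −0.79 to 0.13. With against without a metastasis, S100A8 was 0.010 without a filter and ran from −0.43 to 0.81, S100A14 from −1.61 to 2.14 and S100A4 from −0.28 to 0.065 with samples left out. With library size alone, r in HGA was 0.0014 for S100A8 with S100A9, 0.067 for S100A8 and 0.012 for S100A2 with squamous markers, and r of S100A8 with S100A9 was 0.028 without HGA 10. Without HGA 10, r of S100A12 with neutrophil markers was 0.82 (permutation, adjusted p = 0.0350, against 0.57 and 0.249 with it). Without the 2 tumors farthest in S100A12, HGA 8 and 4, but with HGA 10 kept, it was −0.29. The value of r thus depended on which tumors were left out, and r without HGA 4, 8 and 10 together was not computed.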
